A study of Mus musculus with 12 samples.

Results

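Aminoacyl-tRNA synthetases are the enzymes that join each amino acid to its tRNA, and so supply every ribosome with its substrates. Most amino acids have a separate enzyme for the cytosol and for mitochondria, both encoded in the nucleus and made on cytosolic ribosomes, and several cytosolic enzymes sit together in a multi-synthetase complex held by the scaffold proteins Aimp1, Aimp2 and Eef1e1. Kars and Gars serve both compartments from 1 gene, and mitochondria charge their glutamine tRNA by way of glutamate and an amidotransferase rather than with a synthetase of their own. The genes were chosen by symbol: every gene whose name is a 1-letter amino acid code followed by ars, with or without a final 1, 2, l or l2, together with Farsa, Farsb, Aimp1 and Aimp2. This gave 39 genes with 61 probes, of 32301 gene names with 41174 probes on the array. They were 20 cytosolic enzymes or subunits, 17 mitochondrial enzymes, whose symbols end in 2, and the 2 scaffold proteins. Aimp2 and the threonyl enzyme Tarsl2 also end in 2 and were not counted as mitochondrial. The cytosolic enzyme for glutamate and proline, Eprs, has another pattern of name and was taken as a partner gene.

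The study asked which mRNAs move onto or off ribosomes as fat cell differentiation begins. 3T3-L1, a mouse embryonic fibroblast line that can be turned into adipocytes, was grown to confluence and lysed without hormones (0 h) or after 6 h with 0.5 mM isobutylmethylxanthine, 1 µM dexamethasone and 5 µg/ml insulin in fetal bovine serum, in place of the newborn bovine serum of growth. Lysates made with cycloheximide were run on sucrose gradients, and 2 pools were made, a non-polysomal one of gradient fractions 5 to 7 and a polysomal one of gradient fractions 9 to 11. The 4 groups of time and pool had 3 replicates each, measured on 12 one-colour arrays. The study's methods call the replicates biological, but no source used here says whether they came from separate cultures, so p-values measure the spread between these samples.

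The values below are log2 signals scaled by spike-in RNAs, which were added to each sample. The M-value is the difference between the polysomal and the non-polysomal pool at 6 h minus the same difference at 0 h. A positive M-value means that the polysomal signal grew relative to the non-polysomal signal. That can come from a fall in the non-polysomal pool alone, or from a larger fall there than in the polysomal pool. A gene was called higher or lower at an adjusted p below 0.05 in limma, and where a gene had several probes the one most often well above background, then the brightest, stands for it. The arrays rated 55.6% to 60.8% of their probes as well above background and held no saturated spot. All 20 cytosolic enzymes, both scaffold proteins and 16 of the 17 mitochondrial enzymes were well above background on all 12 arrays, and the exception, Mars2, was so on 9. The fibroblast and preadipocyte markers were well above background on all arrays in 8 of 8 cases and the hormone-induced Cebpb rose by 4.36 in the polysomal pool, and of 7 adipocyte markers 5 (Adipoq, Fabp4, Plin1, Cidec and Lpl) were so on all 12 arrays and Lep and Cfd on none. Of 5 markers of other cell types, the keratin Krt8 was so on all 12 arrays, the leukocyte marker Ptprc on 1, and the epithelial Epcam and endothelial Pecam1 on none. The endothelial Cdh5 was well above background on 3 arrays, with mean polysomal signals of 1.05 at 0 h and 4.67 at 6 h (adjusted p = 3.1e-07), and its part in the results was not tested. In pools of lysed cells, fewer cells with an mRNA and less of it per cell cannot be told apart.

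The short stretches below come from the promoter windows of RefSeq (GRCm38.p6, 250 bases before and 50 after an annotated start), which hold 29 of the 39 genes. Among those without a window were Cars, Hars, Hars2, Lars, Nars, Pars2, Rars, Vars and Wars. The first set shows letters found in only 1 of the classes among these windows, which also holds for GCGCATGC below, whose stretches are not shown. The letters shown, TGATGNAA, are the core of the element that the stress factor ATF4 binds with its partners. They stood on either strand in 5 of 13 cytosolic windows and 0 of 14 mitochondrial ones, against 3.97% of all 32851 windows. Capitals mark these letters, which on the opposite strand read TTNCATCA, and 1 stretch is given for each of the 5 enzymes.
Aars (chr8:111033840-111033869, plus strand): agcgggtcactTTTCATCAgagcgctctga
Gars (chr6:55037960-55037989, plus strand): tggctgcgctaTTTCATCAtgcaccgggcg
Iars (chr13:49682126-49682155, plus strand): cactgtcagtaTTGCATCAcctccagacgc
Tars (chr15:11399655-11399684, minus strand): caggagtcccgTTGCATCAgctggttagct
Yars (chr4:129189895-129189924, plus strand): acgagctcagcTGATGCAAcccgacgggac
The E-box letters CACGTG, which read the same on both strands, were found in 4 of 13 cytosolic windows (Aars, Iars, Tars and Farsb) and in 1 of 14 mitochondrial ones (Ears2), against 7.15% of all windows. The letters GCGCATGC, a core of the sites of the mitochondrial biogenesis factor NRF1, were found in 0 of 13 cytosolic and 3 of 14 mitochondrial windows (Wars2, Rars2 and Vars2), against 2.71%. These are matches of letters, not sites shown to be bound, and the motifs do not overlap one another. The second set shows the annotated starts of Qars, Aimp1 and Wars2, the genes with the highest M-values among the cytosolic enzymes, the scaffold proteins and the mitochondrial enzymes, from 10 bases before the start to 20 bases from it. Capitals mark the longest run of C and T, which is of interest because mRNAs of ribosomal proteins begin with such a run.
Qars (chr9:108507995-108508024, plus strand): tcaaggcttcgtaCTCCTattggtcaatga
Aimp1, 1 annotated start (chr3:132683860-132683889, minus strand): tcctgggTCCTTTCTCgctgccggggactg
Aimp1, the other start (chr3:132684371-132684400, minus strand): aCCTgcctgaatctggggacgcagagattg
Wars2 (chr3:99141080-99141109, plus strand): cggccccgCCCTTCTCaagatggcgctgtt
The run was 5 bases in Qars, 9 and 3 in Aimp1 and 8 in Wars2, and 46.4% of all windows held a run of at least 5, 11.2% of at least 8 and 7.11% of at least 9. The position of the start is that of the annotation and was not measured here.

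Before induction, most synthetases gave more signal in the polysomal than in the non-polysomal pool, which does not measure the share of an mRNA on polysomes. At 0 h, 19 of the 20 cytosolic enzymes and 15 of the 17 mitochondrial enzymes had a higher signal in the polysomal pool, with medians of 2.53 and 1.93 on the log2 scale. Of all probes, 37.0% were called higher and 15.0% lower in this comparison, with a median of 0.15, and of the probes well above background on all arrays 64.0% were higher and 21.1% lower, with a median of 0.88. At 6 h the polysomal signal was higher for 20 of 20 cytosolic and 16 of 17 mitochondrial enzymes, with medians of 2.66 and 1.87. The shares at 6 h were 59.9% higher and 9.99% lower of all probes, and 75.6% and 13.6% of those well above background on all arrays, where the median was 1.32. Both classes thus stood well above the median of detected probes at both times. The sizes rest on the scaling: with the 75th percentile the cytosolic and mitochondrial medians were 1.63 and 1.04 at 0 h and 1.33 and 0.54 at 6 h.

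**Figure D1:**
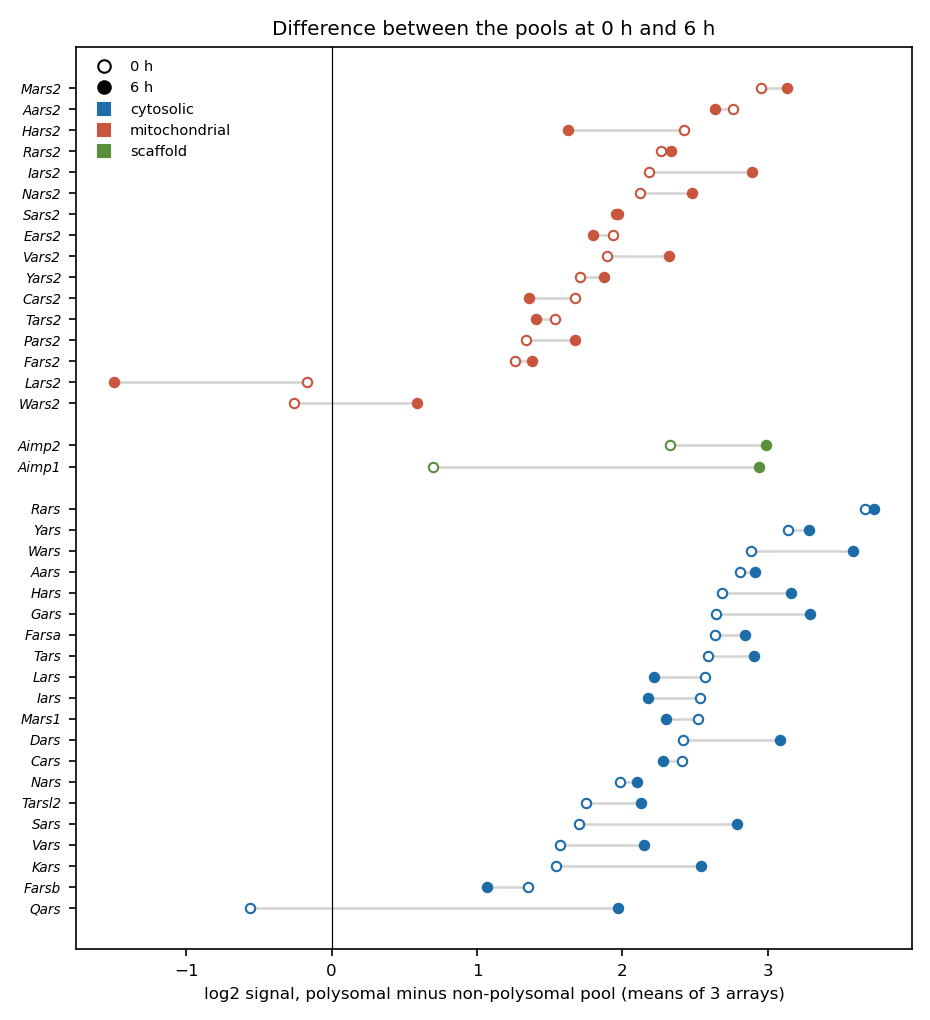
Difference between the polysomal and non-polysomal pools for 38 of the genes (log2 signal, x axis) at 0 h (open) and 6 h (filled), from the means of 3 arrays per group. Most genes lie between 1 and 4 at both times. Qars crosses from -0.56 to 1.97, Aimp1 goes from 0.70 to 2.94, and Lars2 from -0.17 to -1.50.

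The arginyl enzyme Rars had the largest polysomal excess at 0 h, 3.67 ± 0.12 (SE, 12.7-fold). Its non-polysomal signals at 0 h were dim, at 4.56, 4.20 and 4.37, so this size and rank may vary with the treatment of background. The tyrosyl enzyme Yars followed with 3.14 ± 0.08 (8.81-fold), and a difference between neighbours in this order is often within their SEs. Mars2, the mitochondrial methionyl enzyme, was not well above background on any of the 3 non-polysomal arrays at 0 h, so that its polysomal signal was at least 6.49-fold higher in the processed signal, a bound taken against the lowest signal well above background on each array where that was the higher. Qars, the glutaminyl enzyme, was the exception among the cytosolic enzymes, with a polysomal signal lower by 0.56 ± 0.09 (adjusted p = 0.00036). Wars2, the mitochondrial tryptophanyl enzyme, had a difference of -0.26 ± 0.10 (adjusted p = 0.058), and Lars2, the mitochondrial leucyl enzyme, one of -0.17 ± 0.13 (adjusted p = 0.34). The Lars2 probe was the second brightest of all probes, with a mean signal of 18.7, and the next member, Sars, had 13.6. Whether this probe measures the Lars2 mRNA alone was not tested, which holds for each Lars2 value. At 6 h Lars2 was the only enzyme with less signal in the polysomal pool, by -1.50 ± 0.13 (adjusted p = 2e-06).

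The M-value was called higher for 9 and lower for 1 of the 20 cytosolic enzymes, and higher for 4 and lower for 2 of the 17 mitochondrial enzymes. Across the array, 32.0% of all probes were called higher and 4.01% lower, and of the probes well above background on all arrays 53.6% and 6.33%. The median M-value was 0.26 for the cytosolic enzymes and 0.07 for the mitochondrial enzymes, while that of all probes was 0.49. Only 7 of 20 cytosolic and 2 of 17 mitochondrial enzymes exceeded the median of all probes, but both scaffold proteins did. Within the replicate numbers, each of which is a slide of its own, the medians were 0.29, 0.12 and 0.39 for the cytosolic and 0.17, 0.07 and 0.15 for the mitochondrial enzymes, and 0.41, 0.64 and 0.42 for all probes. On each slide both classes were thus below all probes. Without replicate number 3, 3 cytosolic enzymes and 1 mitochondrial enzyme were called higher.

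**Figure D2:**
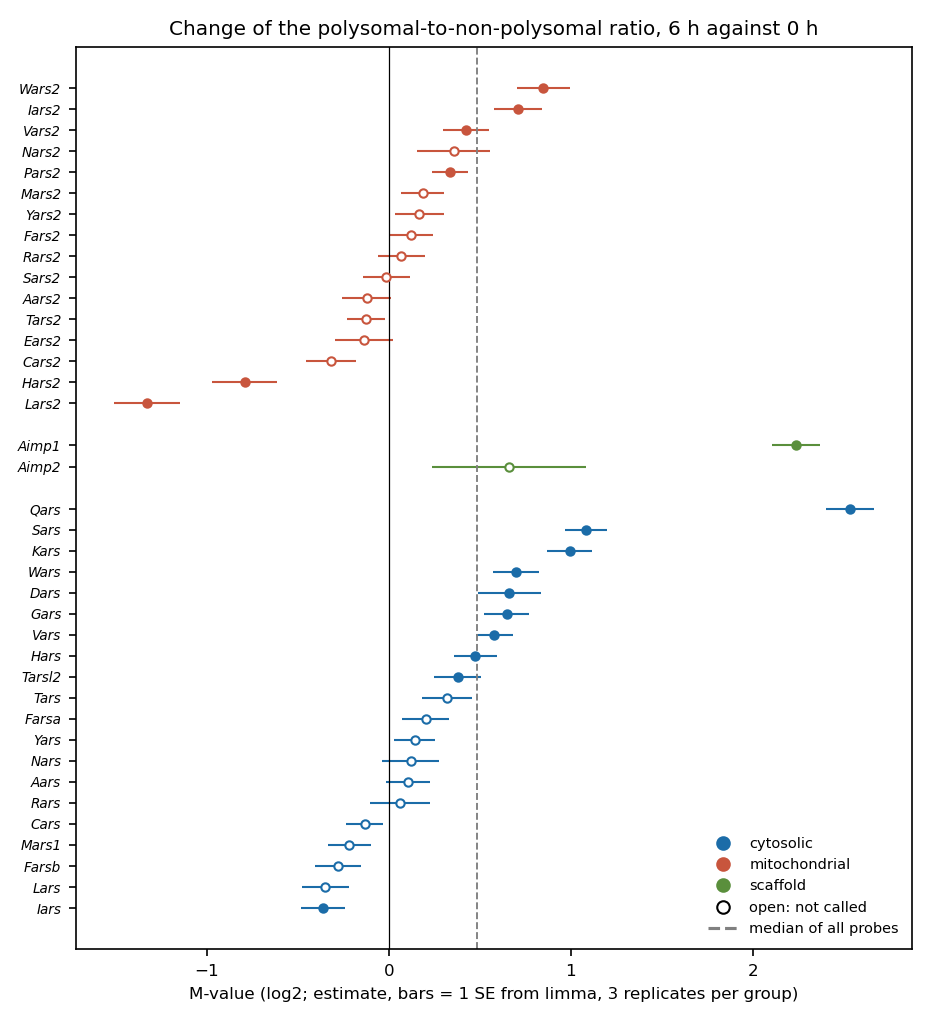
M-value of 38 of the genes (log2, x axis; points are limma estimates and bars 1 SE, 3 replicates per group), ordered within the classes, with the median of all probes as a dashed line at 0.49. Filled points are called at an adjusted p below 0.05. Qars and Aimp1 lie above 2, and Lars2 at -1.33 is the lowest.

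The level of every M-value rests on the scaling. The spike-ins were 0.35 below the mean of the arrays on the polysomal arrays at 6 h and 0.10 to 0.14 above it in the other groups. Correcting the offsets of all groups together adds 0.50 to each M-value. Against the other arrays, the 5 dimmer spike-ins (log2 signal 7.82 to 16.8) were 0.76 to 0.91 lower on the polysomal arrays at 6 h. The 5 brighter ones (18.3 to 19.1) were 0.02 to 0.28 lower there. With the dimmer spike-ins alone, the medians were 0.71 for the cytosolic and 0.52 for the mitochondrial enzymes and 0.94 for all probes, and with the 75th percentile -0.18, -0.37 and 0.04. The calls then were 16 higher and 0 lower for the cytosolic and 13 and 1 for the mitochondrial enzymes with the dimmer spike-ins, and 3 and 8, and 1 and 11, with the 75th percentile. With quantile normalization they were -0.46, -0.37 and -0.00, so the order of the classes turned, as it did with a line fitted to the spike-ins (0.61, 0.63 and 1.42). In all 12 alternatives that kept every array, both class medians stayed below the median of all probes, by 0.21 to 0.81 for the cytosolic and 0.37 to 0.79 for the mitochondrial enzymes. Scalings that subtract 1 constant per array could not change this gap, nor could settings that change only the test. For the cytosolic and mitochondrial enzymes it was -0.46 and -0.37 with quantile normalization and -0.81 and -0.79 with the fitted line. It was -0.27 and -0.49 in the authors' log2 values, and -0.28 and -0.43 with the probes of a gene averaged. With normexp, a background correction, it was -0.21 and -0.40.

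**Figure D3:**
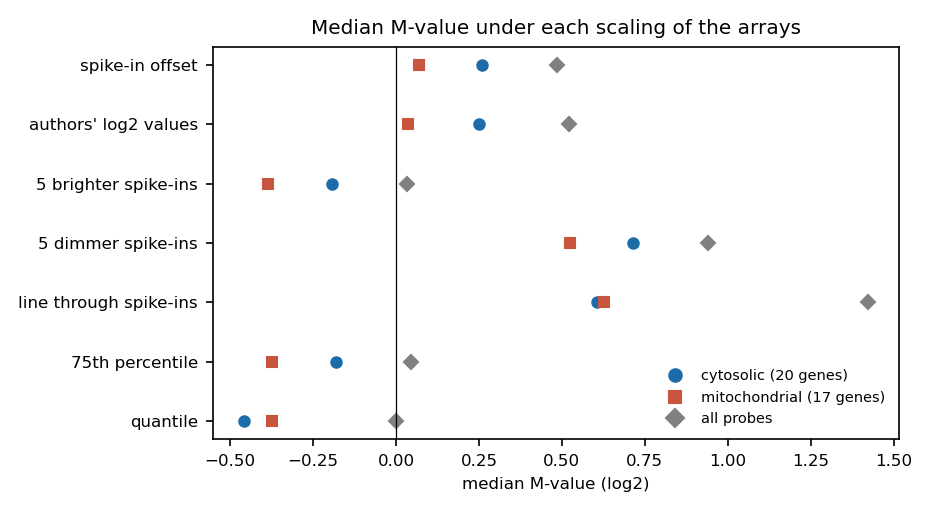
Median M-value (log2, x axis) of the 20 cytosolic enzymes, the 17 mitochondrial enzymes and all probes under 7 scalings of the arrays. The zero moves with the scaling, whereas both classes lie to the left of all probes in each row.

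Qars stood apart from all other enzymes. The signal of Qars was 13.66, 13.99 and 13.86 in the non-polysomal pool and 13.15, 13.36 and 13.31 in the polysomal pool at 0 h. At 6 h Qars had 12.27, 12.25 and 12.31 in the non-polysomal pool and 14.25, 14.20 and 14.30 in the polysomal pool. Its signal fell in the non-polysomal pool and rose in the polysomal pool, with no overlap of the replicates in either. The M-value was 2.54 ± 0.13 (SE, n = 3 per group; adjusted p = 1.7e-06), a 5.80-fold shift of the ratio between the pools, and 2.50, 2.58 and 2.53 on the 3 slides. A second probe gave 2.48 ± 0.12. The polysomal change was 0.98 ± 0.09 (adjusted p = 8e-06) and the non-polysomal change -1.56 ± 0.09 (adjusted p = 4.9e-07). Qars was thereby also the member with the second largest fall in the non-polysomal pool.

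Aimp1, the scaffold protein that anchors the arginyl enzyme in the complex and is also processed into a secreted cytokine, was the other gene with an M-value above 2. Aimp1 had non-polysomal signals of 13.09, 13.13 and 13.06 at 0 h and 11.90, 11.83 and 11.85 at 6 h. Its polysomal signals were 13.62, 13.92 and 13.83 at 0 h and 14.76, 14.69 and 14.94 at 6 h. All 3 polysomal values at 6 h were above, and all 3 non-polysomal values below, those at 0 h. The M-value was 2.24 ± 0.13 (SE, n = 3 per group; adjusted p = 3.2e-06), a 4.72-fold shift, and 2.33, 2.07 and 2.31 on the slides. The polysomal signal rose by 1.00 ± 0.09 (2.01-fold; adjusted p = 6.8e-06) and the non-polysomal signal fell by 1.23 on the log2 scale (adjusted p = 2.4e-06). For Qars and Aimp1, M-values were called in each of the 27 alternatives with a test, between 1.72 and 2.99 and between 1.36 and 2.69.

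Aimp2, the second scaffold protein of the complex, had a less certain value. For Aimp2, the non-polysomal pool gave 5.58, 6.90 and 5.52 at 0 h and 6.99, 6.98 and 6.96 at 6 h, and the polysomal pool 8.24, 8.43 and 8.32 at 0 h and 9.94, 9.89 and 10.05 at 6 h. Replicate 2 of the non-polysomal pool at 0 h was more than 1 log2 unit above the other two. The M-value was 0.66 ± 0.42 (SE, n = 3 per group; adjusted p = 0.23), with 0.30, 1.39 and 0.29 on the slides. Without that array it was 0.21 (adjusted p = 0.19). The M-value of Aimp2 was called higher in 4 of 27 alternatives: 0.78 in the authors' log2 values (adjusted p = 0.013), 0.84 with normexp, a model-based background correction (adjusted p = 0.00084), 1.24 with the fitted line (adjusted p = 0.022) and 1.11 with the dimmer spike-ins (adjusted p = 0.04). Its polysomal change of 1.63 ± 0.30 (adjusted p = 0.001) was a 3.10-fold rise.

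**Figure D4:**
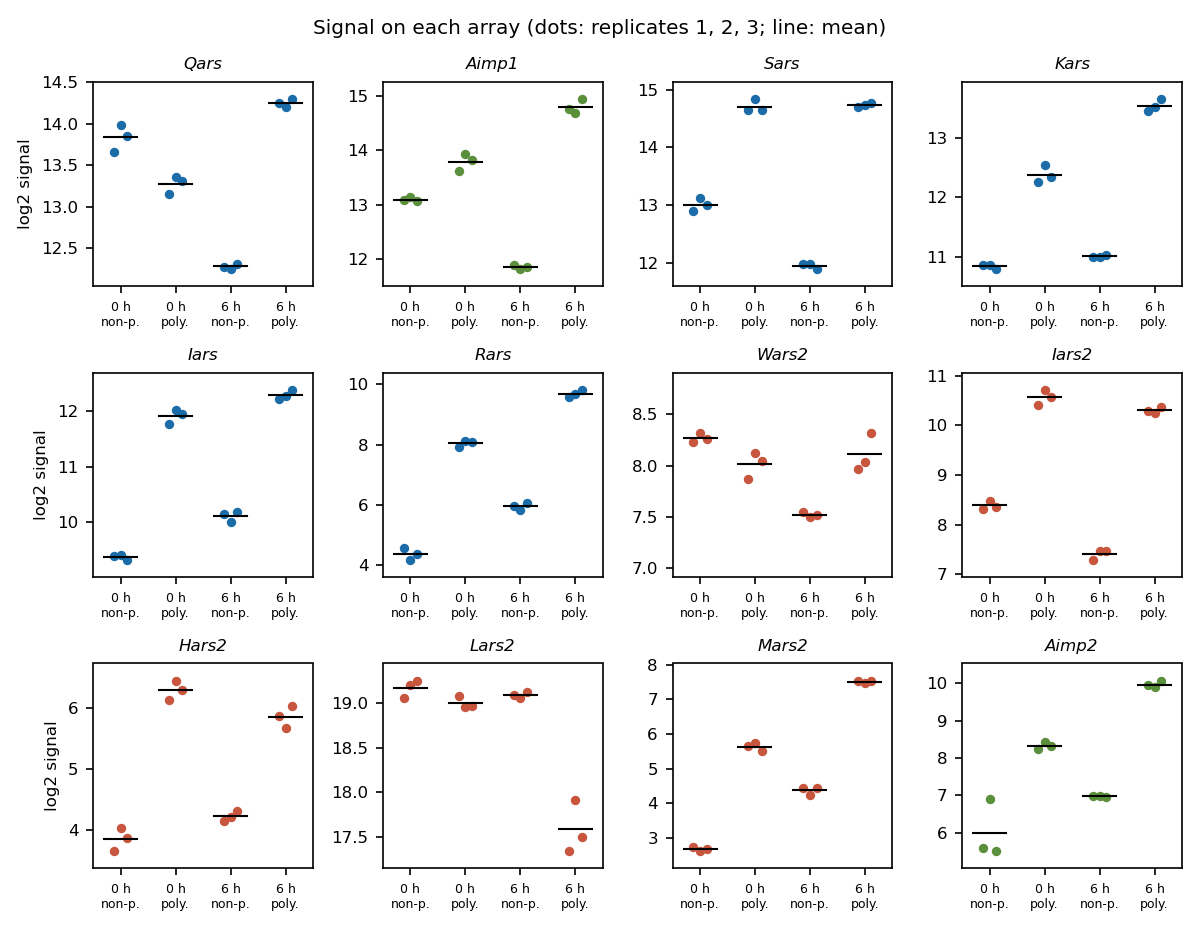
Log2 signal on each of the 12 arrays for 12 of the genes described (dots are replicates 1 to 3 from left to right, lines the group means; each panel has its own y axis). The groups of Qars and Aimp1 do not overlap, and 1 of the 3 non-polysomal values of Aimp2 at 0 h stands apart.

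The seryl enzyme Sars and the lysyl enzyme Kars came next. Polysomal signals of Sars were 14.64, 14.83 and 14.65 at 0 h and 14.71, 14.74 and 14.77 at 6 h, and its non-polysomal signals 12.89, 13.12 and 13.00 at 0 h and 11.98, 11.97 and 11.90 at 6 h. In Sars the polysomal signal at 6 h overlapped that at 0 h (change 0.03 ± 0.08, adjusted p = 0.76), and the non-polysomal signal fell by 1.05 on the log2 scale (adjusted p = 3.1e-06). This gave an M-value of 1.08 ± 0.12 (SE, n = 3 per group; adjusted p = 9.2e-05). The signal of Kars was 10.86, 10.86 and 10.80 in the non-polysomal pool and 12.25, 12.55 and 12.35 in the polysomal pool at 0 h. At 6 h Kars had 11.00, 10.99 and 11.03 in the non-polysomal pool and 13.45, 13.53 and 13.65 in the polysomal pool. Here the polysomal signal rose, by 1.16 ± 0.09 (2.24-fold; adjusted p = 1.4e-06), and the non-polysomal change was 0.17 ± 0.09 (adjusted p = 0.17). The M-value was 0.99 ± 0.12 (SE, n = 3 per group; adjusted p = 0.00021). The Sars value was 0.04 with quantile normalization (adjusted p = 0.78).

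Of the other cytosolic enzymes called higher, Wars (tryptophan), Dars (aspartate), Gars (glycine), Vars (valine), Hars (histidine) and Tarsl2 (a second threonyl enzyme) had M-values of 0.70, 0.66, 0.65, 0.58, 0.48 and 0.38. Their adjusted p-values lay between 0.0014 (Vars) and 0.045 (Tarsl2). Second probes gave 0.26 ± 0.15 for Wars, 1.05 ± 0.16 for Dars, 0.65 ± 0.10 for Vars and 0.11 ± 0.17 for Tarsl2, and the third Dars probe was well above background on no array. The enzymes not called had M-values of 0.32 (Tars), 0.20 (Farsa), 0.14 (Yars), 0.12 (Nars), 0.11 (Aars), 0.06 (Rars) and -0.13 (Cars), besides the 3 described next. The probes of Tars and Aars differed in call: a second Tars probe gave 0.83 ± 0.15 (adjusted p = 0.0017) and a second Aars probe -0.51 ± 0.12 (adjusted p = 0.0084).

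At the low end stood the isoleucyl enzyme Iars, the leucyl enzyme Lars, the phenylalanyl subunit Farsb and the methionyl enzyme Mars1, all with more signal in the polysomal pool at both times. Iars had non-polysomal signals of 9.39, 9.40 and 9.33 at 0 h and 10.15, 10.01 and 10.17 at 6 h. Its polysomal signals were 11.77, 12.01 and 11.94 at 0 h and 12.21, 12.27 and 12.37 at 6 h. Both pools rose in Iars and the non-polysomal pool more, 0.74 ± 0.09 against 0.38 ± 0.09, for an M-value of -0.36 ± 0.12 (SE, n = 3 per group; adjusted p = 0.042). With the replicate block the M-value of Iars was not called (adjusted p = 0.064), which left 0 cytosolic enzymes called lower. The other probe gave -0.56 ± 0.14 (adjusted p = 0.013). For Lars, the non-polysomal pool gave 11.12, 11.05 and 11.07 at 0 h and 11.06, 11.01 and 11.04 at 6 h, and the polysomal pool 13.50, 13.64 and 13.80 at 0 h and 13.29, 13.12 and 13.35 at 6 h. The M-value of Lars was -0.35 ± 0.13 (SE, n = 3 per group; adjusted p = 0.06), and its other probes gave -0.63 ± 0.13 (adjusted p = 0.0049) and -0.86 ± 0.17 (adjusted p = 0.0032). Polysomal signals of Farsb were 8.18, 8.46 and 8.40 at 0 h and 9.36, 9.39 and 9.50 at 6 h, and its non-polysomal signals 7.04, 7.07 and 6.88 at 0 h and 8.34, 8.38 and 8.32 at 6 h. Farsb rose in both pools, by 1.07 ± 0.09 in the polysomal and 1.35 ± 0.09 in the non-polysomal pool, with an M-value of -0.28 ± 0.13 (SE, n = 3 per group; adjusted p = 0.11). The signal of Mars1 was 8.52, 8.58 and 8.48 in the non-polysomal pool and 10.93, 11.08 and 11.12 in the polysomal pool at 0 h. At 6 h Mars1 had 8.93, 8.81 and 9.01 in the non-polysomal pool and 11.20, 11.13 and 11.32 in the polysomal pool. Mars1 rose in the non-polysomal pool by 0.39 ± 0.08 (adjusted p = 0.0039), and its M-value was -0.22 ± 0.12 (SE, n = 3 per group; adjusted p = 0.17). Iars was not called in 12 of the 15 fits that left out 1 array or 1 replicate number (adjusted p up to 0.20), and with the dimmer spike-ins the M-values of all 4 were above 0, between 0.09 and 0.24.

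Among the mitochondrial enzymes, Wars2, Iars2 and Vars2 had the highest M-values. Wars2 had non-polysomal signals of 8.23, 8.32 and 8.26 at 0 h and 7.54, 7.50 and 7.52 at 6 h. Its polysomal signals were 7.87, 8.12 and 8.04 at 0 h and 7.97, 8.04 and 8.32 at 6 h. The non-polysomal signal of Wars2 fell by 0.75 on the log2 scale (adjusted p = 0.00016), and the polysomal signal overlapped between the times. Its M-value was 0.85 ± 0.14 (SE, n = 3 per group; adjusted p = 0.0013), and its other probes gave 0.95 ± 0.10 and 1.11 ± 0.19. The former fell in the polysomal pool as well, by 0.67 on the log2 scale (adjusted p = 2.1e-05). For Iars2, the non-polysomal pool gave 8.31, 8.49 and 8.36 at 0 h and 7.30, 7.47 and 7.48 at 6 h, and the polysomal pool 10.42, 10.71 and 10.57 at 0 h and 10.30, 10.25 and 10.37 at 6 h. In Iars2 both pools fell and the non-polysomal pool more, -0.97 ± 0.09 against -0.26 ± 0.09, and the M-value was 0.71 ± 0.13 (SE, n = 3 per group; adjusted p = 0.0023). Polysomal signals of Vars2 were 9.95, 10.22 and 10.10 at 0 h and 9.73, 9.78 and 9.84 at 6 h, and its non-polysomal signals 8.09, 8.32 and 8.18 at 0 h and 7.49, 7.49 and 7.42 at 6 h. Vars2 fell in the same way, by -0.73 ± 0.09 and -0.31 ± 0.09, with an M-value of 0.42 ± 0.12 (SE, n = 3 per group; adjusted p = 0.025) and 0.11 ± 0.11 from its other probe. Pars2, the prolyl enzyme, was the fourth called higher, at 0.33 ± 0.10 (adjusted p = 0.025). Vars2 turned to -0.02 with the 75th percentile and -0.04 with quantile normalization, and the M-value of Vars2 was 0.27 with normexp (adjusted p = 0.037).

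Lars2, Hars2 and Cars2 were the lowest. The signal of Lars2 was 19.06, 19.20 and 19.24 in the non-polysomal pool and 19.08, 18.95 and 18.96 in the polysomal pool at 0 h. At 6 h Lars2 had 19.09, 19.06 and 19.12 in the non-polysomal pool and 17.35, 17.92 and 17.50 in the polysomal pool. The non-polysomal change of Lars2 was -0.08 ± 0.13 (adjusted p = 0.73), and all 3 polysomal values at 6 h were below every other value. The polysomal change was -1.41 ± 0.13 (adjusted p = 6.5e-06) and the M-value -1.33 ± 0.18 (SE, n = 3 per group; adjusted p = 0.00039), with -1.76, -0.90 and -1.33 on the slides. With the brighter spike-ins alone, the M-value of Lars2 was -1.78. Hars2 had non-polysomal signals of 3.67, 4.04 and 3.87 at 0 h and 4.15, 4.21 and 4.31 at 6 h. Its polysomal signals were 6.12, 6.43 and 6.29 at 0 h and 5.87, 5.67 and 6.02 at 6 h. Hars2, the histidyl enzyme, was the only enzyme whose polysomal signal fell (-0.43 ± 0.13, adjusted p = 0.015) while the non-polysomal signal rose (0.37 ± 0.13, adjusted p = 0.043). Its M-value was -0.79 ± 0.18 (SE, n = 3 per group; adjusted p = 0.0067), but 0.09 with a line fitted to the spike-ins and -0.27 in the authors' log2 values (adjusted p = 0.071), and with normexp the M-value of Hars2 was -0.10 (adjusted p = 0.40). For Cars2, the non-polysomal pool gave 8.20, 8.34 and 8.002 at 0 h and 8.36, 8.37 and 8.32 at 6 h, and the polysomal pool 9.81, 9.79 and 9.96 at 0 h and 9.68, 9.63 and 9.81 at 6 h. Cars2, the cysteinyl enzyme, was not called in either pool and had an M-value of -0.32 ± 0.14 (SE, n = 3 per group; adjusted p = 0.096). The other mitochondrial enzymes were not called, with M-values between -0.14 (Ears2) and 0.36 (Nars2), among them Tars2 (-0.13), Aars2 (-0.12), Sars2 (-0.01), Rars2 (0.07), Fars2 (0.12), Yars2 (0.17) and Mars2 (0.18, which uses its dim values at 0 h). A second Tars2 probe gave -0.43 ± 0.11 (adjusted p = 0.014).

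In the change of the polysomal signal alone the class medians lay further apart than in the M-value. In the polysomal pool, 12 cytosolic enzymes rose and 5 fell from 0 h to 6 h, against 7 and 8 mitochondrial enzymes, and the medians were 0.60 and -0.15. These directions rest on the scaling as well: the cytosolic median was -0.27 with quantile normalization, and the mitochondrial one was 0.30 with the fitted line and 0.26 with the dimmer spike-ins. Of all probes 50.7% rose and 11.7% fell, with a median of 0.54, and of those well above background on all arrays 62.6% and 18.0%. In the non-polysomal pool 8 cytosolic enzymes rose and 6 fell, and 7 and 6 mitochondrial enzymes, with medians of 0.05 and 0.10. There 20.6% of all probes rose and 19.6% fell, and 36.3% and 31.9% of those well above background on all arrays. On the 3 slides the polysomal medians were 0.68, 0.39 and 0.63 for the cytosolic and -0.12, -0.16 and -0.15 for the mitochondrial enzymes. The mitochondrial median was below the cytosolic median in all 12 alternatives that kept every array, by 0.39 to 0.81. Scalings by 1 constant per array and settings that change only the test could not alter this difference of -0.74. The mitochondrial minus the cytosolic median was -0.39 with quantile normalization, -0.54 with the fitted line and -0.72 in the authors' log2 values. With normexp it was -0.57, and with the probes of a gene averaged -0.81. The difference between the classes is a description and was given no p-value.

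**Figure D5:**
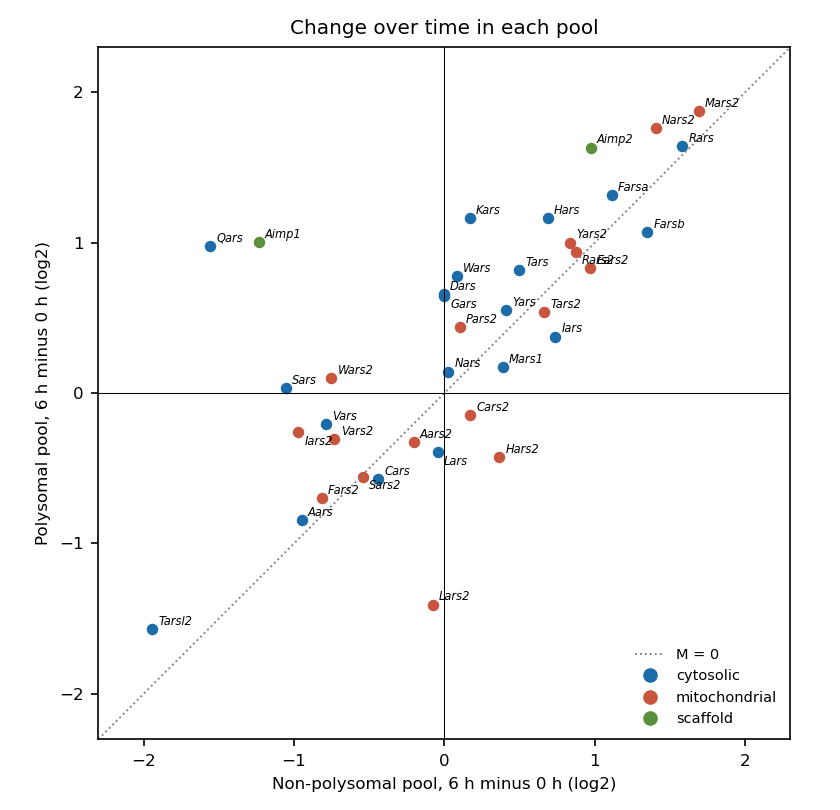
Change from 0 h to 6 h in the polysomal pool (y axis) against that in the non-polysomal pool (x axis), log2, for 38 of the 39 genes, with the line of equal change (M = 0) dotted. Most genes lie near the line, which means that both pools moved together. How many of all probes do so was not computed. Qars and Aimp1 lie in the upper left, and Lars2 lies below the line with a fall in the polysomal pool alone.

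By the representative probes, both pools moved in the same direction for most genes. How many of all probes did so was not computed, so the counts below are not set against the array. Both rose for 7 cytosolic enzymes (Farsa, Farsb, Hars, Iars, Rars, Tars and Yars), 6 mitochondrial enzymes (Ears2, Mars2, Nars2, Rars2, Tars2 and Yars2) and Aimp2, and both fell for 4 cytosolic (Aars, Cars, Tarsl2 and Vars) and 5 mitochondrial enzymes (Fars2, Iars2, Sars2 and Vars2 among them). Polysomal signal alone rose for Dars, Gars, Kars, Wars and Pars2 and alone fell for Lars, Aars2 and Lars2. Non-polysomal signal alone rose for Mars1 and fell for Sars and Wars2, and Nars and Cars2 were called in neither pool. The 5 enzymes with TGATGNAA in their windows did not move as 1 group: the polysomal change was 0.82 in Tars, 0.65 in Gars, 0.55 in Yars and 0.38 in Iars, but -0.84 in Aars.

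The largest rises were in Mars2 and Nars2, the mitochondrial methionyl and asparaginyl enzymes, and in Rars. Polysomal signals of Mars2 were 5.64, 5.73 and 5.51 at 0 h and 7.52, 7.47 and 7.53 at 6 h, and its non-polysomal signals 2.73, 2.63 and 2.67 at 0 h and 4.44, 4.24 and 4.43 at 6 h. The polysomal signal of Mars2 rose by 1.88 ± 0.08 (3.67-fold; adjusted p = 3.7e-08) and the non-polysomal signal, not well above background on any array at 0 h, was at least 2.71-fold higher at 6 h in the processed signal (adjusted p = 1.5e-07). The size rests on the treatment of background: the non-polysomal change of Mars2 was 0.60 in the authors' log2 values and 0.36 with normexp. The signal of Nars2 was 3.98, 4.33 and 4.16 in the non-polysomal pool and 5.99, 6.47 and 6.37 in the polysomal pool at 0 h. At 6 h Nars2 had 5.46, 5.69 and 5.53 in the non-polysomal pool and 7.91, 8.03 and 8.17 in the polysomal pool. Nars2 rose by 1.76 ± 0.14 (3.39-fold; adjusted p = 2.5e-06) and 1.40 ± 0.14 (adjusted p = 1.9e-05). Rars had non-polysomal signals of 4.56, 4.20 and 4.37 at 0 h and 5.97, 5.82 and 6.08 at 6 h. Its polysomal signals were 7.92, 8.12 and 8.10 at 0 h and 9.57, 9.69 and 9.80 at 6 h. Rars rose by 1.64 ± 0.12 (3.12-fold; adjusted p = 8.9e-07) and by 1.58 ± 0.12 in the non-polysomal pool (adjusted p = 1.9e-06). The non-polysomal change of Rars was 0.84 in the authors' log2 values and 0.59 with normexp. None of these 3 groups of values overlapped between the times in either pool.

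The largest falls were in Tarsl2, and in the polysomal pool also in Lars2. For Tarsl2, the non-polysomal pool gave 7.44, 7.50 and 7.41 at 0 h and 5.52, 5.53 and 5.46 at 6 h, and the polysomal pool 9.01, 9.31 and 9.28 at 0 h and 7.60, 7.56 and 7.74 at 6 h. Tarsl2 fell by 1.57 on the log2 scale in the polysomal pool (to a ratio of 0.337; adjusted p = 2.3e-07) and by 1.94 in the non-polysomal pool (to a ratio of 0.260; adjusted p = 1.1e-07), but the non-polysomal change of Tarsl2 was -1.16 with normexp. A dimmer probe, well above background on 6 arrays, gave smaller falls of 0.61 and 0.72 on the log2 scale. The other threonyl enzyme, Tars, rose in both pools, by 0.82 ± 0.10 and 0.50 ± 0.10. In Lars, 1 probe fell by 2.22 ± 0.12 in the polysomal pool, against 0.39 ± 0.09 for the representative probe. The former also fell in the non-polysomal pool, with a change of -1.36 (adjusted p = 7.4e-06). There the representative probe had -0.04 (adjusted p = 0.78), so the probes of Lars differed in pattern as well as in size.

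For 15 amino acids both a cytosolic and a mitochondrial enzyme were measured. Tars stood for threonine and Farsa for phenylalanine, and Tarsl2 and Farsb were left out of the pairs. The polysomal change of Tarsl2 was -1.57, against 0.54 for Tars2, so with Tarsl2 the threonine pair would turn. The cytosolic enzyme had the higher polysomal change in 10 of the 15 pairs, with a median difference of 0.59, and the higher M-value in 9, with a median difference of 0.16. It also had the larger polysomal excess in 10 pairs at 0 h and in 11 at 6 h. In 4 pairs the cytosolic enzyme rose and the mitochondrial enzyme fell in the polysomal pool, among them 1.31 against -0.70 for phenylalanine (Farsa and Fars2), 1.16 against -0.43 for histidine (Hars and Hars2) and 0.38 against -0.26 for isoleucine (Iars and Iars2). Methionine and asparagine went the other way, with 0.17 for Mars1 against 1.88 for Mars2 and 0.14 for Nars against 1.76 for Nars2. The pair for arginine rose together, 1.64 for Rars and 0.94 for Rars2.

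The partners of the synthetases gave M-values nearer to the array as a whole. Of 13 genes that act beside them, 8 were called higher and 0 lower, with a median of 0.55. Aarsd1, an editing factor that removes serine from alanine tRNA, had the highest at 1.58 ± 0.14 (adjusted p = 2.8e-05), followed by Dtd1, which removes D-amino acids from tRNA, at 1.12 ± 0.13 (adjusted p = 0.00015). The lowest were the selenophosphate synthetases Sephs1 (-0.36 ± 0.25, adjusted p = 0.27) and Sephs2 (-0.30 ± 0.12, adjusted p = 0.086). Eprs had -0.24 ± 0.11 (adjusted p = 0.12) and the third scaffold protein Eef1e1 0.86 ± 0.12 (adjusted p = 0.00039), with a polysomal rise of 2.37.

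Of 26 genes for tRNA processing and export, 18 were called higher in M-value and 0 lower, with a median of 0.69. The methyltransferase Trmt1 reached 2.18 ± 0.11 (adjusted p = 1.8e-06) and the tRNA ligase Rtcb 1.41 ± 0.14 (adjusted p = 5.2e-05). The lowest were Rpp30, a subunit of RNase P, at -0.30 ± 0.15 (adjusted p = 0.13) and Dus1l, a dihydrouridine synthase, at 0.14 ± 0.14 (adjusted p = 0.44). In the polysomal pool 22 of these 26 genes rose and 0 fell, where 50.7% of all probes rose and 11.7% fell, and 62.6% and 18.0% of those well above background on all arrays.

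ATF4 is a stress-induced transcription factor that drives amino acid synthesis and uptake as well as several cytosolic synthetases. Of 22 other targets of it, 14 were called higher in M-value and 0 lower, with a median of 0.61, and 14 fell and 4 rose in the non-polysomal pool, where 19.6% of all probes fell and 20.6% rose, and 31.9% and 36.3% of those well above background. In the polysomal pool 10 rose and 7 fell, against the shares just given for that pool. The amino acid transporter Slc7a5 had an M-value of 1.76 ± 0.17 (adjusted p = 5.4e-05) and Phgdh, the first enzyme of serine synthesis, 1.51 ± 0.10 (adjusted p = 6.3e-06). The lowest were Atf5 (-0.12 ± 0.15, adjusted p = 0.54) and Slc6a9 (-0.02 ± 0.11, adjusted p = 0.91). Chac1 and Trib3, which are induced by stress, fell in both pools, by 1.74 and 1.24 on the log2 scale in the polysomal pool. Outlier spots of Chac1 were left out in both groups at 0 h, so its fall rests on only 1 array in each of these groups. Chac1 is kept in the counts above. Other targets differed: the polysomal and non-polysomal changes were -1.79 and -1.77 in Ddit3 but 1.17 and 0.82 in Ddit4. The polysomal change of Sesn2 was 0.12 (adjusted p = 0.22). The median M-values of these lists, 0.55, 0.69 and 0.61, stand beside 0.49 for all probes, and their M-value counts are to be read against the 32.0% of all probes and 53.6% of those well above background that were called higher.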

How the data were processed

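RNA from the non-polysomal and polysomal gradient pools was measured at 0 h and 6 h on 12 one-colour arrays, 3 per group. Per the file headers, Feature Extraction 10.7.1.1 gave the deposited intensity of each spot, background-subtracted and not normalized between arrays. The authors also deposited log2 values per probe, which equal the log2 median pixel intensity plus a constant per array and were used as an alternative. Here the log2 of the processed signal was taken, outlier spots were left out, spots of a probe were averaged, and the mean of 10 spike-in transcripts was subtracted per array. Of 41174 probes, 26690 were named through RefSeq accessions. limma 3.58.1 in R 4.3.3 (lmFit, eBayes, Benjamini-Hochberg over all probes, threshold 0.05) fitted the 4 groups. The precision is limited by the number of arrays. The fit was tested on simulated data. The alternatives were other scalings, normexp (offset 50, on median signals, since the mean signal is not used here), filters, probe rules, the replicate block and left-out arrays. The members and lists were chosen with earlier results of these data known. Full values are given for the extremes of M-value and of change per class, and for Aimp2, chosen after its values were seen. One enzyme, kept in all counts and medians, and a promoter stretch are not reported here by name or value.

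Each slide held 1 replicate of every group, with the same number. Arrays correlated at 0.985 to 0.992 within and 0.925 to 0.971 between groups.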

Additional observations from a re-analysis of the deposited data

Results flagged for a closer look

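The change over time differed between the polysomal and non-polysomal pools, by the interaction in limma that the M-value tests, for 17 of the 39 genes. Of all probes 32.0% were called higher and 4.01% lower in M-value, and of those well above background on all arrays 53.6% and 6.33%. The M-values were 2.54 for Qars, 2.24 for Aimp1, 1.08 for Sars, 0.99 for Kars, 0.85 for Wars2, 0.71 for Iars2 and 0.70 for Wars. They were 0.66 for Dars, 0.65 for Gars, 0.58 for Vars, 0.48 for Hars, 0.42 for Vars2, 0.38 for Tarsl2 and 0.33 for Pars2. Below 0 they were -0.36 for Iars (not called with the replicate block, adjusted p = 0.064), -0.79 for Hars2 and -1.33 for Lars2. In Qars and Aimp1 the polysomal signal rose and the non-polysomal signal fell, and in Hars2 the reverse, with both changes called. The M-value of Hars2 was called in 22 of 27 alternatives, and those of Qars and Aimp1 in all 27. The zero of these values moves with the scaling of the arrays.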

How the results depend on the processing

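The counts of enzymes with more signal in the polysomal pool at 0 h and 6 h stayed within 1.5 times their value under every alternative. The count of mitochondrial enzymes at 6 h was 12 with the 75th percentile and with quantile normalization. The size of the difference between the pools and the counts for the M-value moved with the scaling. In the order cytosolic higher, cytosolic lower, mitochondrial higher and mitochondrial lower, the M-value calls were 9, 1, 4 and 2 as reported. They were 3, 8, 1 and 11 with the 75th percentile, 3, 12, 1 and 10 with quantile normalization, and 16, 0, 14 and 1 with a line fitted to the spike-ins. With the 5 dimmer spike-ins, chosen after seeing the data like the 5 brighter ones, they were 16, 0, 13 and 1, and with the brighter ones 3, 5, 0 and 5. The cytosolic and mitochondrial median M-values under these settings were -0.18 and -0.37, -0.46 and -0.37, 0.61 and 0.63, 0.71 and 0.52, and -0.19 and -0.38, in the same order. The median polysomal changes were 0.12 and -0.62, -0.27 and -0.66, 0.85 and 0.30, 1.00 and 0.26, and 0.20 and -0.55.

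The cytosolic enzymes falling in the polysomal pool were 8 with the 75th percentile, 11 with quantile normalization (with 5 rising) and 3 with the dimmer spike-ins, and the mitochondrial ones falling were 2 with the fitted line and 3 with the dimmer spike-ins. In the comparison of the pools, the 75th percentile gave 2 mitochondrial enzymes lower at 0 h and 2 at 6 h with 1 cytosolic enzyme lower at 6 h, and quantile normalization gave 1, 2 and 1. The fitted line, the dimmer spike-ins, normexp, the filter on dim probes and the trend in the prior variance each gave 1 mitochondrial enzyme lower at 0 h. The M-value of Vars2 changed sign (-0.018 with the 75th percentile, -0.045 with quantile normalization, -0.0300 with the brighter spike-ins). The same happened with the fitted line for Mars1 (0.22), Farsb (0.30), Cars2 (0.23) and Hars2 (0.090), and with the dimmer spike-ins for Mars1 (0.24), Farsb (0.17), Lars (0.10), Iars (0.092) and Cars2 (0.14).

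The number of cytosolic enzymes with a lower M-value was 0 in the authors' log2 values and 2 with normexp, with the filter on dim probes, with the trend and with the probes of a gene averaged. The mitochondrial median polysomal change was -0.017 with normexp and -0.21 with the averaged probes. The fit of normexp over all spots failed on 2 arrays and is not given, and that without spots of non-uniform background was chosen after seeing the data. With the replicate block, 0 cytosolic enzymes had a lower M-value (Iars, adjusted p = 0.064), and no other count of calls moved by over 1.5 times. Deviations of arrays with the same number correlated at -0.10 to 0.42, over 0.1 in 4 of 18 pairs. The numbers were taken to mark a slide and not to pair the samples, but these correlations do not exclude a pairing. The replicate block allows for it. On single slides the median M-value was 0.17 (slide 1) and 0.15 (slide 3) for the mitochondrial and 0.12 (slide 2) for the cytosolic enzymes, and the polysomal medians were -0.12 (slide 1, mitochondrial) and 0.39 (slide 2, cytosolic).

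Leaving out 1 array or 1 replicate number gave 3 to 10 cytosolic enzymes with a higher and 0 to 3 with a lower M-value, and 1 to 4 and 1 to 3 mitochondrial ones. It gave 3 to 5 cytosolic and 4 to 8 mitochondrial enzymes falling in the polysomal pool, 5 to 8 cytosolic enzymes rising in the non-polysomal pool and 0 to 1 mitochondrial enzymes lower in the polysomal pool at 0 h. The lowest counts of higher M-values came without replicate 3. The mitochondrial medians ranged from -0.0017 to 0.12 for the M-value and from -0.20 to -0.091 for the polysomal change, and the cytosolic ones from 0.19 to 0.35 and from 0.52 to 0.67. The causes were not tested.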
